A study of Mus musculus with 6 samples.

Results

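The genes described here are 39 genes of the epithelial cell's structural fabric, namely 11 keratins, 11 desmosome genes, 14 tight junction genes, and the splicing factors Esrp1 and Esrp2 with the cadherin Cdh3. They were chosen by gene symbol, and all 39 were found among the 53465 genes of the deposited table. RNA was measured in 6 libraries of 4T1, an established mouse mammary carcinoma line. Axitinib blocks the kinase activity of VEGF receptors. All the cells trace back to lesions that arose after surgery in mice on 100 mg/kg/day of the drug, and they were kept in culture with 0.5 µM axitinib for more than 2 months. They were sorted with C12FDG, which fluoresces once senescence-associated β-galactosidase cleaves it, into a fraction high (SM positive, n = 3 libraries) and a fraction low (SM negative, n = 3 libraries) in that activity. The controls therefore share the drug exposure of the SM positive cells, all come from the same resistant line, and no untreated cells are compared here. The comparison asks how the fractions differ in the genes that build the cytoskeleton and junctions of an epithelial cell.

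Keratins are intermediate filament proteins that pair, a type I with a type II chain, into cables across the cytoplasm. Simple epithelia carry Krt8 with Krt18 and often Krt7 and Krt19, while basal and stratified epithelia carry Krt5 with Krt14 and, under stress, Krt6a, Krt16 and Krt17. Desmosomes anchor these cables at the cell border through the cadherins Dsg2 and Dsc2, the armadillo proteins Jup and the plakophilins, and the linker desmoplakin (Dsp). Tight junctions seal the space between cells with claudins, occludin (Ocln) and tricellulin (Marveld2), which are held from inside by scaffold proteins such as Tjp1 and cingulin (Cgn).

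In SM positive cells, Krt19, Cldn4 and Cgn were lower and no member was higher in the fit that pairs libraries by replicate number. These are 3 of the 29 members that passed the filter on low counts, or 10.3%. Over all 14038 genes tested, 14.1% passed the same threshold (an adjusted p of 0.05), 5.6% lower and 8.52% higher. The members' share called in either direction was thus not above the background. All 3 calls were lower, so the share called lower was 10.3% against 5.6%, and it rests on these 3 genes. Without the replicate block, 1.35% of all genes passed and none of the 29 members did, although 11 of the 29 (37.9%) had an unadjusted p under 0.05 in the paired fit, as did 27.3% of all genes tested. The differences were small. In 25 of the 29 the absolute log2 change was under 0.15, which was true of 66.7% of all genes tested, and the median size of the log2 change was 0.10 in the members as over all genes.

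Each adjusted p is from edgeR's quasi-likelihood test with Benjamini-Hochberg adjustment over all genes tested. A log2 change is SM positive minus SM negative. CPM (the count scaled to a common library total) values are TMM-scaled and are listed for replicates 1, 2 and 3 in turn. Libraries held 18733801 to 26533528 counts.

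The promoters of 4 members are shown, because Cldn4 and Cgn are the tight junction genes that were lower and Krt8 and Krt18 form the main filament pair of these cells. Each runs from 250 bases before to 50 bases after the start of transcription in RefSeq (GRCm38.p6), 5′ to 3′ on the gene's strand, at chr5:134946885-134947184 on the minus strand for Cldn4, chr3:94786433-94786732 on the minus strand for Cgn, chr15:102004293-102004592 on the minus strand for Krt8 and chr15:102027966-102028265 on the plus strand for Krt18. Capitals mark matches, on either strand, to the AP-1 motif TGANTCA, the E-box CAGGTG, the grainyhead motif AACCNGTT, the GC box GGGCGG and the TATA box TATAAA.
Cldn4: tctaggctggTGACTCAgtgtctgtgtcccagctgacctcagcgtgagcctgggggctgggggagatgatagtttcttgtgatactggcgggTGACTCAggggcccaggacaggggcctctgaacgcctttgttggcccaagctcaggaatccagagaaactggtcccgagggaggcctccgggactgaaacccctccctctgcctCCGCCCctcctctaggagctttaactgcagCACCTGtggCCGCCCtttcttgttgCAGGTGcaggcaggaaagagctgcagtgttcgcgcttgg
Cgn: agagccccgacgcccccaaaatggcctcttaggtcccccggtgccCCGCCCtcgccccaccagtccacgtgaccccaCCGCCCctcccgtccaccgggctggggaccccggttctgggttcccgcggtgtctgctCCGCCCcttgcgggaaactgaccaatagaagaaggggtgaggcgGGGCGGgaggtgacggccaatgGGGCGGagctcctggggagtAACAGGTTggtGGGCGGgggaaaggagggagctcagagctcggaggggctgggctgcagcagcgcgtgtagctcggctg
Krt8: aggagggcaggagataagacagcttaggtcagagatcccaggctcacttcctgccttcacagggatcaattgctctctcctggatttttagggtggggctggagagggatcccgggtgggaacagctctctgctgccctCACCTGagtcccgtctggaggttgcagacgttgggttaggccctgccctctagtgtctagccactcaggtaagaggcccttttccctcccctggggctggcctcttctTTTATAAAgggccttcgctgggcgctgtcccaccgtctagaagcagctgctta
Krt18: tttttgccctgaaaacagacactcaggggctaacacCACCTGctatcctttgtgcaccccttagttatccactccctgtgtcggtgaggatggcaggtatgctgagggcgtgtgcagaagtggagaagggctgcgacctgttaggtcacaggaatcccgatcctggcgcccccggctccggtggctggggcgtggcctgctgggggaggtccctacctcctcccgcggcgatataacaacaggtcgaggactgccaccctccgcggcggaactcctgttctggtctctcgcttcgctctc

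Counted from the start of transcription, the Cldn4 window held 2 AP-1 matches, at -240 to -234 and -158 to -152, 2 E-box matches, at -14 to -9 and 12 to 17, and 2 GC box matches, at -44 to -39 and -5 to 1. Cgn held 6 GC box matches and a grainyhead match, at -29 to -22, and no E-box. Krt8 and Krt18 each held a single E-box match, at -111 to -106 and -214 to -209, and Krt8 also 2 TATA box matches that overlap each other at the start. Of the 39 members, 21 had promoter entries, 28 windows in all, some of them from neighbouring starts of the same gene. An E-box lay in 17 of these windows (60.7%), against 20.2% of the 32851 mouse promoter windows of that length, and a GC box in 64.3% against 35.7%. The AP-1 motif was found in 7.14% of member windows against 7.81%, the grainyhead motif in 3.57% against 2.09%, and the TATA box in 14.3% against 13.6%. The E-box CAGGTG is the sequence that ZEB and SNAI repressors are known to bind, and the AACCNGTT core that of grainyhead-like factors. These matches describe letters in a window and were set against no measurement of binding.

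**Figure D1:**
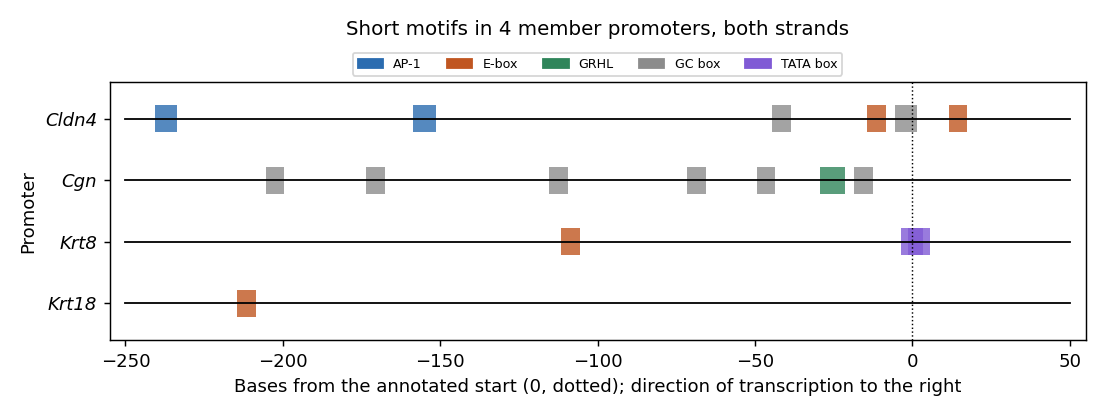
Positions of 5 short motifs in the promoters of Cldn4, Cgn, Krt8 and Krt18, in bases from the annotated start of transcription (dotted line), with each coloured box a match on either strand. Cldn4 carries E-box matches (orange) on either side of its start and 2 GC box matches, while Cgn carries 6 GC box matches and a grainyhead match and no E-box.

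Most of the keratin RNA in these cells came from keratins of simple epithelia, though not from each of them. Per kilobase of principal transcript, the mean level over all libraries was 709.9 CPM for Krt18, 499.0 CPM for Krt8 and 329.7 CPM for Krt7, the highest of the 39 members. Krt7, Krt8 and Krt18 together made up 97.4% to 97.9% of the summed CPM of the 11 keratins in every library. Their place per kilobase depends on the length used, and with all annotated exons Krt7 stood at 191.5 CPM per kilobase, below Perp at 202.6. Krt19, also a simple-epithelial keratin, stood at 0.835 CPM per kilobase of principal transcript, below the basal keratin Krt14 at 10.3.

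**Figure D2:**
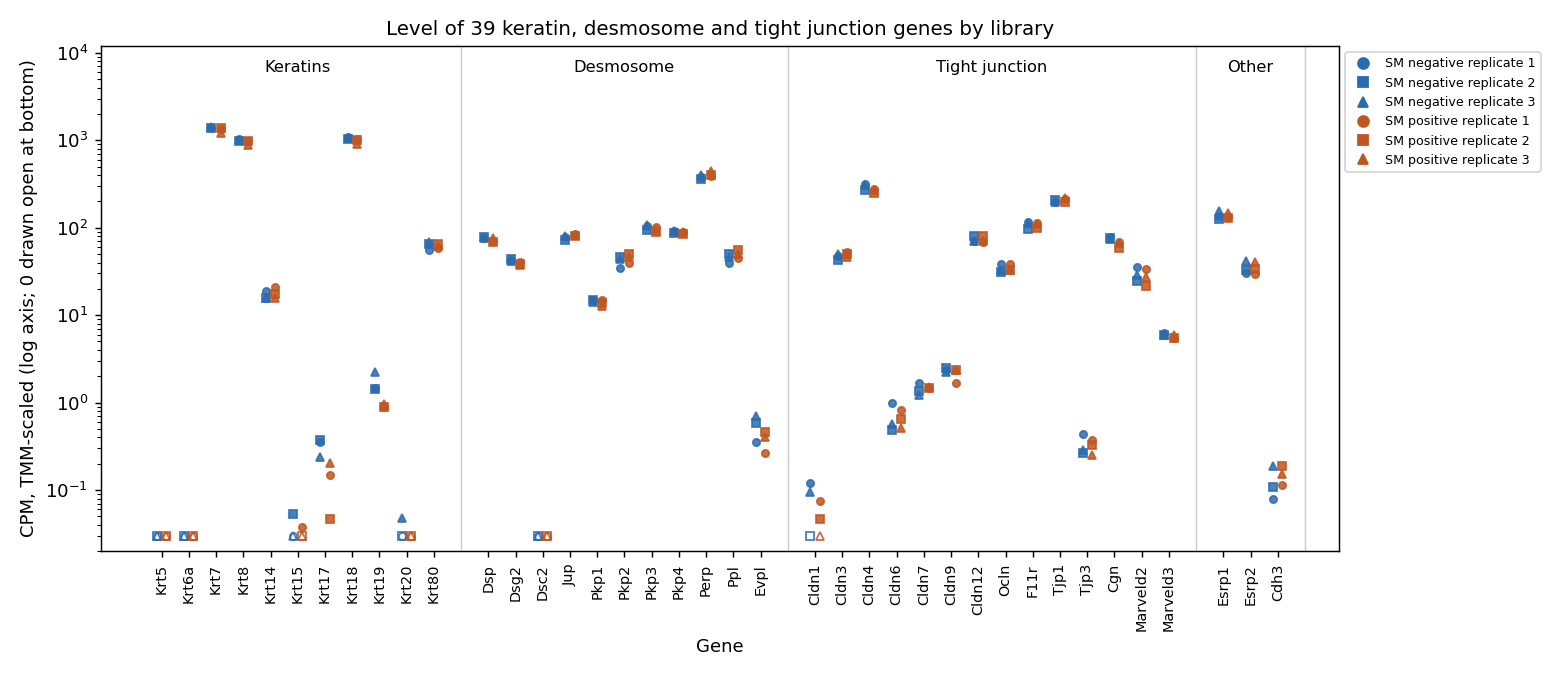
CPM (TMM-scaled, log axis) of each of the 39 genes in the 3 SM negative (blue) and 3 SM positive (orange) libraries, with marker shape giving the replicate number and open symbols at the bottom marking 0 counts. Levels run from 1222.8 to 1403.3 CPM for Krt7 down to 0 for Krt5, Krt6a and Dsc2, and the fractions lie furthest apart on this axis among genes of few counts.

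Krt19, a type I keratin of simple and luminal epithelium (ENSMUSG00000020911.14, GRCm38 chromosome 11, 100140810 to 100148665, minus strand), was the 1 keratin among the members that fell. It stood at 1.47, 1.44 and 2.23 CPM in SM negative and 0.90, 0.887 and 0.962 CPM in SM positive libraries, from 27 to 47 and 19 to 24 counts. All SM positive libraries lay below all SM negative ones, and the low counts leave a wide error. The log2 change was -0.88 ± 0.257 (SE; 95% interval -1.41 to -0.34; adjusted p = 0.0263), and without the block the adjusted p was 0.16. The call was lost when any replicate pair was left out (adjusted p = 0.104 without pair 1, 0.0506 without pair 2 and 0.237 without pair 3).

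The abundant keratins were slightly lower in SM positive cells and did not pass the test. Krt18, the type I partner of Krt8, stood at 1088.8, 1022.1 and 1057.2 CPM in SM negative and 1039.1, 996.7 and 916.6 CPM in SM positive libraries (log2 change -0.10 ± 0.0432 SE, adjusted p = 0.122). Krt8 stood at 1027.2, 981.8 and 1009.3 CPM against 975.3, 983.6 and 885.1 CPM (log2 change -0.09 ± 0.0435 SE, adjusted p = 0.203). Krt7, a type II keratin of glandular ducts, stood at 1374.9, 1379.6 and 1403.3 CPM against 1351.0, 1367.7 and 1222.8 CPM (log2 change -0.08 ± 0.0448 SE, adjusted p = 0.273). In all of these genes SM positive replicate 3 was the lowest library, and the difference within pair 3 was about -0.2 on the log2 scale (-0.21, -0.19 and -0.20 for Krt18, Krt8 and Krt7), while within pairs 1 and 2 it lay between -0.07 and 0.00. With pair 2 left out, Krt8 and Krt18 passed (adjusted p = 0.034 and 0.0347). The ratio of Krt8 to Krt18, per kilobase, was 0.692, 0.705 and 0.701 in SM negative and 0.689, 0.724 and 0.709 in SM positive libraries, and the fractions overlapped. Other genes share 32.3% of the 31-base words in Krt8, chiefly the pseudogene Krt8-ps, which was listed with 1065 to 1537 counts. The Krt8 level is uncertain to that extent. Krt18 shares 11.4% of its words, chiefly with Gm5200, so its level and the ratio are uncertain too.

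Of the basal and stress keratins among the members, Krt14 averaged 10.3 CPM per kilobase of principal transcript. The others (Krt5, Krt6a, Krt15 and Krt17) were scarce or absent and were not tested. Krt14 was tested and did not pass. Krt14, the basal type I keratin, stood at 18.7, 15.7 and 15.8 CPM in SM negative and 21.1, 17.5 and 15.7 CPM in SM positive libraries (log2 change 0.11 ± 0.0723 SE, adjusted p = 0.341). Other genes, chiefly Krt16, hold 28.2% of its 31-base words. Krt5, its type II partner, and Krt6a, a wound-induced keratin, had 0 counts in all 6 libraries, which allows up to 0.113 to 0.16 CPM per library. Krt15 and Krt20 had at most 1 count in any library. Krt17, a stress keratin, had 9, 7 and 5 counts in SM negative and 4, 1 and 4 in SM positive libraries and was not tested. For Krt80, an epithelial keratin found near desmosomes, the means were 63.1 ± 6.79 and 62.1 ± 3.07 CPM (SD, n = 3), with a log2 change of -0.02 (adjusted p = 0.872).

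No desmosome gene passed the test. Of 11, 9 were tested, and their changes lay between -0.14 and 0.14 on the log2 scale with a median of -0.05. They did not share a direction, as Dsg2, Pkp3 and Pkp4 were lower and Jup, Pkp2, Perp and Ppl higher in SM positive cells in all 3 pairs. Over all genes tested, 22.7% were lower and 23.9% higher in all 3 pairs.

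Among the adhesive and armadillo components, Dsg2, the desmosomal cadherin of simple epithelia, stood at 43.1, 43.4 and 41.9 CPM in SM negative and 40.7, 38.8 and 37.3 CPM in SM positive libraries. The fractions did not overlap, and the change missed the threshold (log2 change -0.14 ± 0.0509 SE, unadjusted p = 0.0148, adjusted p = 0.082). Its partner cadherin Dsc2 had 0 counts in every library. Jup, plakoglobin, which ties desmosomal cadherins to desmoplakin, stood at 78.1, 72.9 and 79.9 CPM against 84.8, 80.8 and 82.5 CPM (log2 change 0.10 ± 0.043 SE, adjusted p = 0.115), and here too the fractions did not overlap, with SM positive the higher. Pkp2, a plakophilin of simple epithelia, stood at 35.0, 46.0 and 43.7 CPM against 39.2, 49.6 and 46.5 CPM (log2 change 0.12 ± 0.0498 SE, adjusted p = 0.118). The other plakophilins stood lower in SM positive cells, by a log2 change of -0.09 for Pkp3, -0.05 for Pkp4 and -0.08 for Pkp1, with adjusted p = 0.201, 0.532 and 0.56.

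The linkers and the tetraspan protein of the desmosome showed the same size of difference. Dsp stood at 75.4, 77.7 and 76.3 CPM in SM negative and 69.7, 68.2 and 76.8 CPM in SM positive libraries (log2 change -0.10 ± 0.0462 SE, adjusted p = 0.179). Perp, a membrane protein of desmosomes that is also a p53 target, was the most abundant of the class at 376.6, 358.4 and 403.0 CPM against 388.7, 402.0 and 444.6 CPM (log2 change 0.12 ± 0.04 SE, adjusted p = 0.0555). Ppl, periplakin, which joins desmosomes to keratin and the cornified envelope, stood at 39.5, 50.7 and 46.2 CPM against 44.9, 55.9 and 49.6 CPM (log2 change 0.14 ± 0.0485 SE, adjusted p = 0.0515). Perp and Ppl were higher in SM positive cells within each pair, by 0.05 to 0.19 on the log2 scale, while the ranges of the fractions overlapped. Perp passed with library totals as the scaling (adjusted p = 0.0438), with limma-voom (0.049) and with no filter (0.0295), and Ppl with no filter (0.0285). Evpl, envoplakin, had 7 to 15 counts per library and was not tested.

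**Figure D3:**
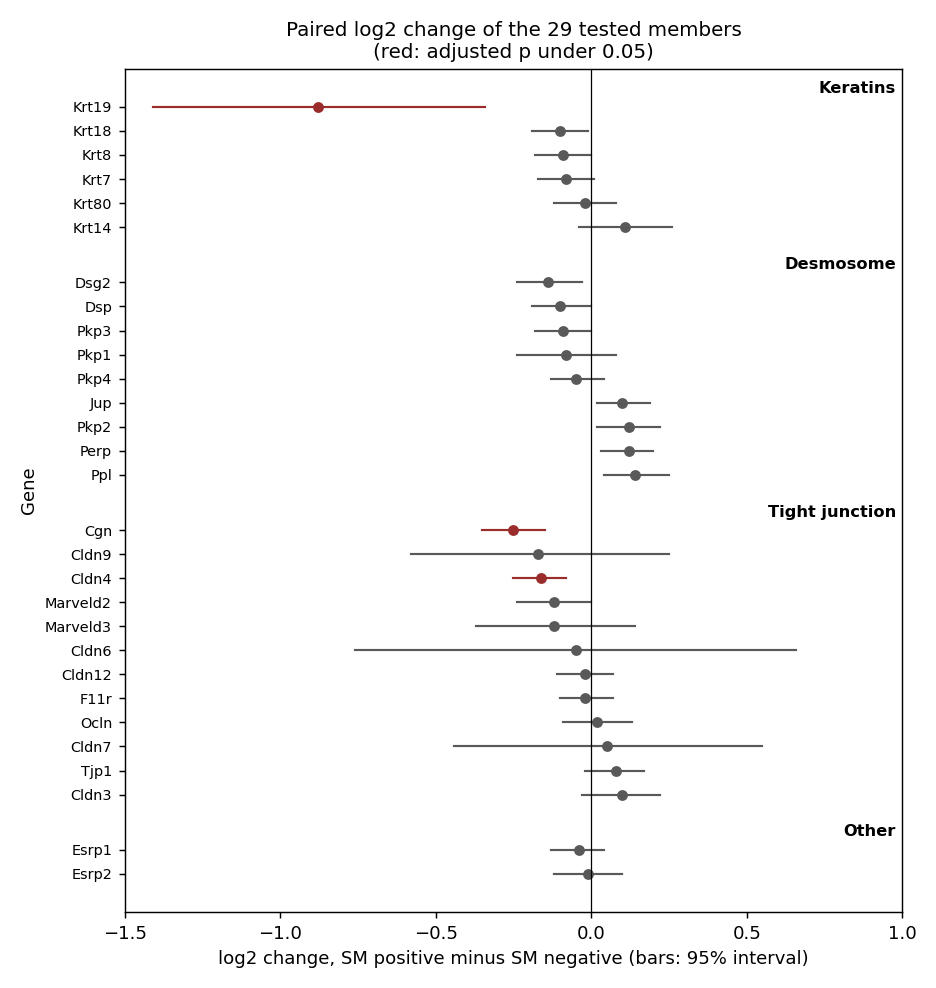
Paired log2 change (SM positive minus SM negative) of the 29 tested members with its 95% interval, grouped by class, with red for an adjusted p under 0.05. Krt19, Cgn and Cldn4 are red and lie below 0, the desmosome genes lie on either side of 0, and the widest intervals belong to the low-count claudins and Krt19.

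Tight junction genes held the other members that fell. Cgn, cingulin, a plaque protein that links the junction to actin and myosin (ENSMUSG00000068876.14, chromosome 3, 94760069 to 94786492, minus strand), stood at 77.9, 77.1 and 74.9 CPM in SM negative and 68.3, 58.2 and 66.8 CPM in SM positive libraries. The fractions did not overlap, and the difference within pairs was -0.19, -0.41 and -0.17 on the log2 scale. The log2 change was -0.25 ± 0.0494 (SE; 95% interval -0.35 to -0.15; adjusted p = 0.00185), a level 1.19-fold higher in SM negative cells. Without the block the adjusted p was 0.139. Among the members, Cgn alone kept its call when any replicate pair was left out (adjusted p = 0.0219 without pair 1, 0.0277 without pair 2 and 0.00885 without pair 3). Other genes share 21.6% of the 31-base words in Cgn, chiefly BC021767, which had 0 to 6 counts per library.

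Cldn4, a claudin of tight epithelia (ENSMUSG00000047501.3, chromosome 5, 134945119 to 134946934, minus strand), had the highest level of the claudins among the members, at 154.3 CPM per kilobase of principal transcript, with Cldn3 next at 38.4. Cldn4 stood at 315.6, 268.8 and 304.7 CPM in SM negative and 276.3, 247.6 and 268.5 CPM in SM positive libraries. The ranges overlap, because replicate 2 was the lowest library in either fraction, but the SM positive library was lower within each pair, by -0.19, -0.12 and -0.18 on the log2 scale. The log2 change was -0.16 ± 0.0391 (SE; 95% interval -0.25 to -0.08; adjusted p = 0.00727), and without the block the adjusted p was 0.326. The call ended without pair 1 (adjusted p = 0.124) or pair 3 (0.0764). Cldn3, which lies close to Cldn4 on chromosome 5 (134986214 to 134987472), did not pass, at 46.8 ± 3.93 CPM in SM negative and 49.9 ± 2.9 CPM in SM positive cells (SD, n = 3; log2 change 0.10 ± 0.0586 SE, adjusted p = 0.321).

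**Figure D4:**
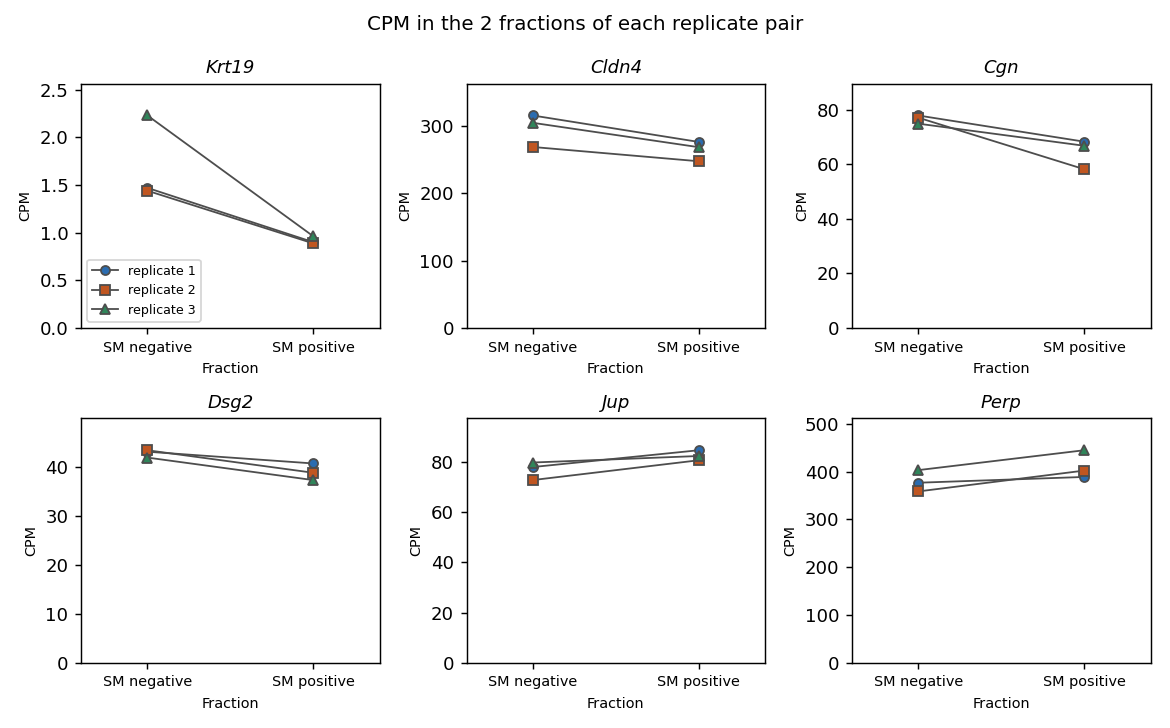
CPM of 6 genes in the SM negative and SM positive library of each replicate pair, joined by a line, on axes from 0. The lines of Krt19, Cldn4, Cgn and Dsg2 slope down and those of Jup and Perp slope up in all 3 pairs, while the ranges of the fractions overlap for Cldn4 and Perp.

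Tjp1, Ocln, F11r and Cldn12 did not pass. Tjp1, the main scaffold, stood at 195.8, 205.6 and 194.4 CPM in SM negative and 213.3, 196.8 and 218.2 CPM in SM positive libraries (log2 change 0.08 ± 0.0449 SE, adjusted p = 0.296), and it passed as higher when pair 2 was left out (adjusted p = 0.0423). Ocln stood at 34.3 ± 3.5 and 34.7 ± 3.01 CPM (SD, n = 3; 95% interval of the log2 change -0.09 to 0.13). F11r, the junctional adhesion molecule JAM-A, stood at 108.8 ± 10.2 and 107.4 ± 7.55 CPM (95% interval -0.10 to 0.07), and Cldn12 at 73.9 ± 5.64 and 72.9 ± 5.76 CPM (95% interval -0.11 to 0.07). These intervals leave out log2 changes as large as that fitted for Cgn.

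Marveld2, tricellulin, which seals the corners where cells meet, stood at 36.0, 24.9 and 28.9 CPM in SM negative and 33.3, 21.7 and 27.5 CPM in SM positive libraries (log2 change -0.12 ± 0.0577 SE, adjusted p = 0.17). It was lower in each pair, by less than the spread between pairs. The means of Marveld3, a relative of occludin, were 6.03 ± 0.261 and 5.58 ± 0.259 CPM (SD, n = 3), with a log2 change of -0.12 (adjusted p = 0.593). Among the scarce claudins, Cldn9 stood at 2.36 ± 0.142 and 2.13 ± 0.386 CPM, Cldn7 at 1.41 ± 0.23 and 1.48 ± 0.0379 CPM, and Cldn6 at 0.681 ± 0.275 and 0.662 ± 0.16 CPM (SD, n = 3), with adjusted p = 0.65, 0.914 and 0.951. The 95% intervals of the log2 change were -0.58 to 0.25 for Cldn9, -0.44 to 0.55 for Cldn7 and -0.76 to 0.66 for Cldn6. For each gene, a difference within its own interval was below what these counts could show. Cldn1 had 0 to 3 counts and Tjp3, a scaffold of epithelial junctions, 5 to 11 counts per library, and neither was tested.

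The epithelial splicing factors, which set the epithelial exon choice of many transcripts, did not pass. Esrp1 stood at 137.1, 127.5 and 154.4 CPM in SM negative and 131.8, 128.4 and 146.2 CPM in SM positive libraries (log2 change -0.04 ± 0.0413 SE, adjusted p = 0.564). Esrp2 stood at 30.4, 32.6 and 41.3 CPM against 29.5, 33.8 and 40.6 CPM (log2 change -0.01 ± 0.0535 SE, adjusted p = 0.94). Replicate 3 was the highest library of either fraction for these genes. Cdh3, the cadherin of basal mammary cells, had 2 to 4 counts per library and was not tested.

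Set side by side, the classes differed little. The median log2 change was -0.08 over 6 keratins, -0.05 over 9 desmosome genes and -0.03 over 12 tight junction genes, against 0.00 over all genes tested. Within pairs 1, 2 and 3, the keratin median was -0.05, -0.02 and -0.19, the desmosome median 0.00, -0.05 and 0.01, and the tight junction median -0.15, -0.04 and -0.01. The class with the lowest median thus changed from pair to pair. Of the 29 tested members, 11 (37.9%) were lower and 4 (13.8%) higher in SM positive cells in all 3 pairs, against 22.7% and 23.9% of all genes tested. The 4 were the desmosome genes Jup, Pkp2, Perp and Ppl. For 6 of the 29 (20.7%) the fractions did not overlap, which was true of 19.9% of all genes tested. In bulk RNA, fewer cells carrying a transcript and less of it per cell cannot be told apart.

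Other genes of the same structures, taken from lists written with earlier results of these data known, moved in either direction. Of 27 other keratins, 15 had no count and 3 were tested, and Krt16, the type I partner of Krt6a, fell from 1.35, 2.08 and 1.18 CPM to 0.938, 0.654 and 0.456 CPM (log2 change -1.13 ± 0.298 SE, adjusted p = 0.0145). Krt16 shares sequence with Krt14, and its count may be split between them. Of 8 genes listed as other desmosome genes, 2 were tested, Dst and Cdsn, and neither passed. The 6 not tested were desmosomal cadherins with at most 1 count in any library. Of 23 other tight junction genes, 14 were tested, 3 rose and 1 fell, or 28.6% called against 14.1% over all genes. Magi3, a scaffold of the MAGUK family, rose from 50.7, 58.4 and 57.2 CPM to 72.0, 78.0 and 74.1 CPM (log2 change 0.43 ± 0.0455 SE, adjusted p = 1.67e-06), and it was the 1 gene of these lists that also passed without the block (adjusted p = 0.0178).

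Mpp5, the Crumbs-complex scaffold also called PALS1, rose (log2 change 0.25 ± 0.0515 SE, adjusted p = 0.00251), and Crb3, the apical Crumbs protein it binds, fell (log2 change -0.44 ± 0.129 SE, adjusted p = 0.0261). Cgnl1, paracingulin, the close relative of Cgn, was the third gene that rose and is named after its values were seen. It stood at 288.9, 290.1 and 303.3 CPM in SM negative and 346.5, 314.1 and 345.2 CPM in SM positive libraries (log2 change 0.19 ± 0.0406 SE, adjusted p = 0.00355), opposite in direction to Cgn. Without the block the adjusted p was 0.184 for Mpp5, 0.228 for Crb3, 0.169 for Cgnl1 and 0.168 for Krt16.

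Of 10 tested genes in the adherens junction list, Ctnnd1, p120-catenin, rose (log2 change 0.14 ± 0.0409 SE, adjusted p = 0.026). Epcam, an adhesion molecule counted in that list though not a core part of the junction, fell (log2 change -0.16 ± 0.0414 SE, adjusted p = 0.0147). Cdh1, E-cadherin, stood at 730.9, 679.8 and 751.8 CPM in SM negative and 735.8, 728.2 and 779.8 CPM in SM positive libraries and did not pass (log2 change 0.05, adjusted p = 0.424). None of 9 tested epithelial transcription factors passed, among them Grhl2 (log2 change -0.02, adjusted p = 0.863). Of 11 terminal differentiation genes, 6 had no count and the 1 that was tested did not pass. Of 6 tested mesenchymal genes, Vim, the filament protein of mesenchymal cells, rose (log2 change 0.14 ± 0.0408 SE, adjusted p = 0.0289), as did the transcription factor Twist1 (log2 change 0.30 ± 0.0697 SE, adjusted p = 0.00563), and none fell. These were 2 of 10 genes tested in the adherens junction list and 2 of 6 in the mesenchymal list, both short lists, against 14.1% called over all genes. Without the block the adjusted p was 0.285 for Ctnnd1, 0.266 for Epcam, 0.461 for Vim and 0.133 for Twist1.

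Markers of other cell types were low, but 1 fibroblast and 1 leukocyte marker passed the same test as the members. The summed level of 7 fibroblast markers was 4.31 to 4.86 CPM in SM negative and 5.56 to 7.8 CPM in SM positive libraries, most of it Pdgfra and with Lum, Col3a1 and Thy1 at 0. That of 6 leukocyte markers was 6.36 to 8.48 and 4.48 to 5.83 CPM, nearly all of it Cd68, with Adgre1 and Cd3e at 0 and Ptprc at 0.05 CPM or less. With Emcn at 0, the 5 endothelial markers summed to 0.0467 to 0.427 CPM over the 6 libraries, and the 6 myoepithelial markers to 26.9 to 36.0 CPM, nearly all of it Mylk. Mean Pdgfra was 3.55 CPM in SM negative and 5.07 CPM in SM positive cells, a log2 change of 0.49 ± 0.158 (SE) with an adjusted p of 0.0423. Mean Cd68 was 6.74 and 4.9 CPM, a log2 change of -0.46 ± 0.121 (SE) with an adjusted p of 0.0148, and both genes moved the same way in all 3 pairs as in the fit. Without the block the adjusted p was 0.246 and 0.233. The part of these markers in the results was not tested.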

How the data were processed

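The authors deposited a gene table of expected counts, estimates that may hold fractions of a read. The submitters' processing notes list RSEM 1.3.1, STAR 2.6.0a, FastQC 0.11.5 and GRCm38. The order of these tools, the annotation release and the strand setting were not given in the sources used here. Per the labels' protocols, polyadenylated RNA was made into libraries with a stranded kit. Symbols, positions and lengths (APPRIS principal transcript) came from GENCODE M21 (GRCm38), which matched 99.8% of identifiers, and promoters from RefSeq, which matched 21 members. Since strand use is unknown, the 13 members with a gene on the opposite strand (Krt7, Krt8, Dsp, Dsg2, Cldn3, Tjp1 and Esrp2 among them) may include antisense reads.

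Counts were rounded, filtered with filterByExpr, scaled by TMM and fitted with edgeR 4.0.16 (R 4.3.3, robust quasi-likelihood F test) with the replicate number as a block. The members, lists and tests were chosen with earlier results of these data known. Every member is named. Of each related list, up to 2 genes that rose and 2 that fell are named, by smallest p, among those averaging 1 CPM or more. Cgnl1, Cdh1 and Grhl2 fall outside this rule and were chosen after their values were seen. The comparison was specified as paired by the replicate numbers in the sample titles. The labels do not say what a number marks, but deviations from the fraction means correlated at 0.22, 0.28 and 0.196 for equal numbers and -0.175 to -0.0435 for unequal ones. Deviations cancel out within a fraction, so positive values for equal numbers push those for unequal numbers down. The negative values therefore add no further support for the pairing. No label states that replicates were grown or sorted separately, so the p-values reflect only variation between these libraries, which may be technical. No libraries agreed within sampling noise (chi-square per gene 6.37 to 18.2). A gene with no count was given an upper limit of 3 counts, which covers counting error only. Within-pair differences are on log2 CPM with a prior count of 2. The fit was tested on simulated data. Alternatives were no block, RLE factors, library totals, no filter, a filter of over 1 CPM in 3 libraries, limma-voom (limma 3.58.1), DESeq2 1.42.0, no robust estimation, a threshold of 0.01, and leaving out replicates.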

Additional observations from a re-analysis of the deposited data

How the results depend on the processing

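The paired design decided most calls. With no replicate block, 190 genes passed in place of 1982, no member in place of 3, and 1 gene of the related lists in place of 9. DESeq2 called 612 genes and 3 of the related lists, and gave no adjusted p for Krt19. At a threshold of 0.01, 939 genes and 4 of the related lists passed. With no filter, 5 members and 14 genes of the related lists passed. Over fits that left out a replicate pair, or 1 library without the block, the count ran from 25 to 1793 genes, 0 to 5 members and 0 to 10 genes of the related lists, and the median of Esrp1 and Esrp2 from -0.12 to 0.08. Leaving out replicate 1 or 3 gave 705 and 886 genes and 1 member, Cgn. In the same fits the keratin median ran from -0.12 to -0.03, with -0.03 when replicate 3 was left out, and the tight junction median from -0.10 to 0.04.

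Cldn4 and Cgn had a negative log2 change in every fit run. Krt19 did so in every fit other than DESeq2, which is not counted for it. This holds for the sign only, as none of these genes passed in the fits without the block. In the fits that left out libraries, the log2 change of some members that never passed crossed 0, from -0.02 to 0.21 for Krt14, -0.11 to 0.04 for Krt80, -0.26 to 0.35 for Cldn6, -0.05 to 0.21 for Cldn7, -0.09 to 0.04 for Cldn12 and F11r, -0.06 to 0.10 for Ocln, -0.29 to 0.04 for Marveld2, -0.10 to 0.03 for Esrp1 and -0.14 to 0.13 for Esrp2. Depth limits the low members, as Krt19 rests on 19 to 47 counts per library. The causes were not tested.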
